A study of Homo sapiens with 6 samples.

Results

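Lumican (LUM), decorin (DCN), biglycan (BGN), versican (VCAN) and perlecan (HSPG2) are genes for the core proteins of matrix proteoglycans. They were taken as a list of 5 gene symbols, and all 5 were found by Ensembl identifier among the 16574 genes of the files. RNA was sequenced from Nthy-ori 3-1, a wild-type line from normal human thyroid follicular epithelium that was immortalised with SV40 large T antigen. The 3 BDE209 libraries came from cells kept for 27 days in 2.5 µM decabromodiphenyl ether, a fully brominated flame retardant, and the 3 DMSO libraries from cells kept as long in the same volume of the solvent. The series addresses the effect of long exposure to BDE209 on proliferation and tumour growth of thyroid cells, and the part of thyroid hormone receptor beta in it. The genes were chosen by family and with their FPKM differences between BDE209 and DMSO already known, so those differences are given as a description, with no test. All libraries come from 1 line, and the labels do not tell whether the replicates were grown apart; any p-value below rests on the spread among these libraries alone, and that spread can be technical.

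A proteoglycan is a core protein that carries long sulfated sugar chains, the glycosaminoglycans. The small leucine-rich members, lumican, decorin and biglycan, bind collagen and shape its fibrils, and decorin and biglycan also hold growth factors such as transforming growth factor beta. The large members build the space around cells. Versican binds hyaluronan through its head domain, and perlecan is a heparan sulfate proteoglycan of basement membranes. In the thyroid, a basement membrane surrounds each follicle, and fibroblasts between the follicles are a main source of the fibrillar matrix.

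Both replicate 2 libraries stood apart from the others, and the values of the 5 genes are given with them and without them. They were separated by the first principal component, with 80.4% of the variance, and the FPKM of a library (fragments scaled to transcript length and library total) summed to 829739 in BDE209 replicate 2 and 819086 in DMSO replicate 2, against 567810 to 596725 in the others. Between 14630 and 14914 genes were listed above 0 in a library. The labelled cell type was not borne out by its markers: TG, the thyroglobulin gene, read 0.02 to 0.12 FPKM, TSHR 0.03 to 0.08 and PAX8 0.35 to 0.49. Only 2 of the 11 follicular markers in the files, FOXE1 and HHEX, passed the filter of FPKM at least 1 in 3 libraries. Of the 10 epithelial markers 4 passed, KRT7 (75.8 to 113 FPKM), KRT18 (36.2 to 55.9 FPKM), KRT8 (5.7 to 9 FPKM) and EPCAM (1.06 to 1.21 FPKM), while CDH1 read 0 to 0.25 FPKM. Of the 15 fibroblast and mesenchymal markers 14 passed, and the list summed to 9561 to 11200 FPKM in BDE209 and 9766 to 13279 FPKM in DMSO libraries. Most of that sum was VIM, while ACTA2 (0.95 to 3.33 FPKM) and TAGLN (0.58 to 3.76 FPKM) read low and PDPN was at 0 to 0.07 FPKM. Of the endothelial list KDR (1.88 to 2.81 FPKM) and ROBO4 (0.33 to 2.29 FPKM) passed, while VWF was at 0 to 0.03 FPKM. Of the immune list CD68, a lysosomal gene, passed at 48.2 to 73.6 FPKM, while PTPRC was at 0 to 0.02 FPKM and LST1 at 0 in every library.

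In BDE209 cells LUM and DCN read higher than in DMSO cells in every replicate, VCAN read higher by less, BGN read at about 0.52 times its DMSO level in replicates 1 and 3 but not in replicate 2, and HSPG2 differed in no common direction. The ratio of BDE209 to DMSO FPKM within replicates 1, 2 and 3 was 2.92, 1.35 and 3.02 for LUM and 2.33, 1.13 and 2.13 for DCN. It was 1.46, 1.09 and 1.39 for VCAN, then 0.520, 1.19 and 0.519 for BGN, and 0.947, 0.774 and 1.14 for HSPG2. The BDE209 and DMSO ranges lay apart for LUM and DCN, both higher, and overlapped for the other 3 genes. LUM, DCN and VCAN were higher in BDE209 within all 3 replicate numbers. Over the 11223 genes that passed the filter, 3.22% lay apart with BDE209 higher and 2% with BDE209 lower, and 21.9% were higher and 17.3% lower within all 3 replicate numbers. Since the genes were chosen with this contrast known, nothing is read from these shares.

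**Figure D1:**
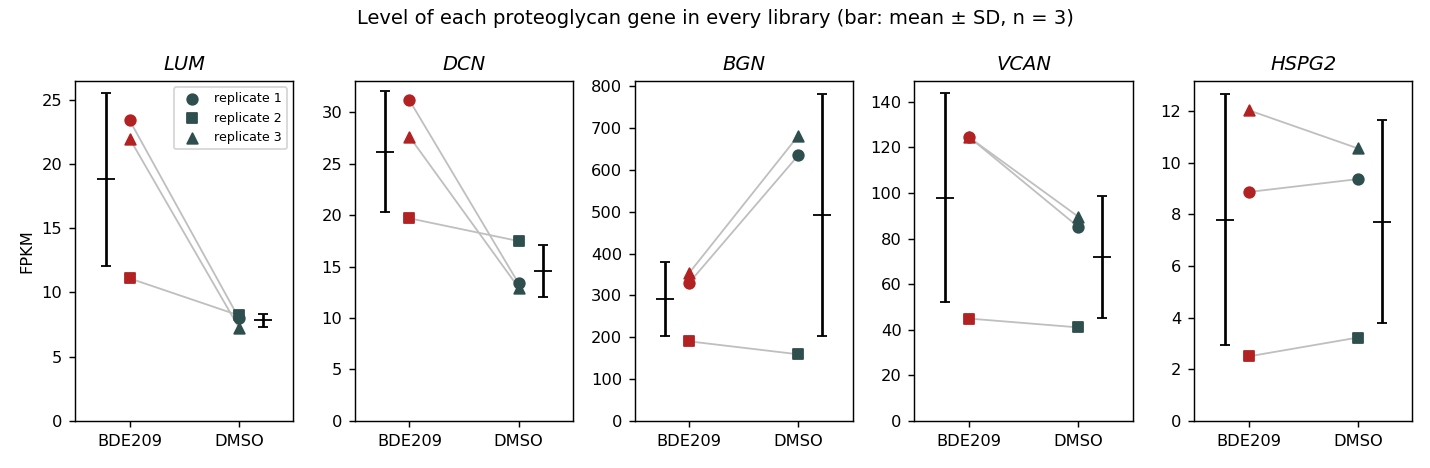
FPKM (y axis, from 0, a separate scale for each gene) of 5 proteoglycan genes in the 3 BDE209 and 3 DMSO libraries, with grey lines joining libraries of the same replicate number and bars for the mean ± SD (n = 3). LUM read 11.1 to 23.4 in BDE209 and 7.26 to 8.21 in DMSO libraries, and the replicate 2 libraries (squares) were the lowest of their group for BGN, VCAN and HSPG2.

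LUM (ENSG00000139329) encodes a keratan sulfate proteoglycan best known for keeping collagen fibrils evenly spaced in the cornea. It read 23.38, 11.09 and 21.96 FPKM in BDE209 replicates 1, 2 and 3, and 8, 8.21 and 7.26 FPKM in DMSO replicates 1, 2 and 3. All BDE209 values were above all DMSO values, and the BDE209 value of replicate 2 was the one nearest to them. The means were 18.8 ± 6.72 FPKM in BDE209 and 7.82 ± 0.499 FPKM in DMSO (SD, n = 3 each). The difference of log2(FPKM + 1), BDE209 minus DMSO, was 1.10, with 1.44, 0.39 and 1.47 within replicates 1, 2 and 3, and 1.46 in replicates 1 and 3 alone. The DMSO libraries lay close together and nearly all of the spread of LUM was among the BDE209 libraries. As RNA came from whole cultures, fewer cells with a transcript and less of it per cell cannot be told apart, here or for the other genes.

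DCN (ENSG00000011465) encodes the dermatan sulfate proteoglycan that binds type I collagen, transforming growth factor beta and the receptors EGFR and MET. It read 31.15, 19.68 and 27.61 FPKM in BDE209 replicates 1, 2 and 3, and 13.35, 17.47 and 12.94 FPKM in DMSO replicates 1, 2 and 3. The groups did not overlap, but the replicate 2 libraries lay closest to each other, the lowest of the BDE209 and the highest of the DMSO values. DCN averaged 26.1 ± 5.87 FPKM in BDE209 and 14.6 ± 2.51 FPKM in DMSO (SD, n = 3 each). The log2 difference was 0.79, with 1.16, 0.16 and 1.04 within replicates 1, 2 and 3, and it was 1.10 in replicates 1 and 3 alone.

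LUM and DCN lie next to each other in the genome, with KERA (keratocan) and EPYC (epiphycan), both also small leucine-rich proteoglycans, on the far side of LUM, by the order of protein-coding genes in RefSeq. KERA was listed at 0 in every library, and EPYC at 0 in all but DMSO replicate 2, where it read 0.05 FPKM. On the other side of DCN the next protein-coding gene is BTG1. LUM and DCN were thus the only members of this gene group above 0.05 FPKM. The root mean square distance between their profiles, each log2(FPKM + 1) centred on its own mean over the 6 libraries, was 0.23, the smallest among the 10 pairs of the 5 genes.

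BGN (ENSG00000182492), the closest relative of decorin among the 5, encodes a chondroitin or dermatan sulfate proteoglycan that binds collagen and, once released from the matrix, the innate immune receptors TLR2 and TLR4. It was the most abundant of the 5. It read 330.51, 190.27 and 353.81 FPKM in BDE209 replicates 1, 2 and 3, and 635.41, 159.29 and 682.37 FPKM in DMSO replicates 1, 2 and 3. DMSO replicate 2 was the lowest library and the other DMSO libraries were the highest, so the groups overlapped. The means were 292 ± 88.5 FPKM in BDE209 and 492 ± 289 FPKM in DMSO (SD, n = 3 each). The log2 difference was -0.54 over all libraries, with -0.94, 0.25 and -0.95 within replicates 1, 2 and 3, and -0.94 in replicates 1 and 3 alone. Leaving out DMSO replicate 2 moved it to -1.22, BDE209 replicate 2 to -0.26, DMSO replicate 1 to -0.23 and DMSO replicate 3 to -0.18.

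VCAN (ENSG00000038427) encodes the large chondroitin sulfate proteoglycan that, with hyaluronan, forms a loose matrix around migrating and dividing cells. It read 124.6, 44.91 and 124.51 FPKM in BDE209 replicates 1, 2 and 3, and 85.2, 41.04 and 89.67 FPKM in DMSO replicates 1, 2 and 3. BDE209 was higher within every replicate number, while both replicate 2 libraries read below all others, so the groups overlapped. The means were 98.0 ± 46.0 FPKM in BDE209 and 72.0 ± 26.9 FPKM in DMSO (SD, n = 3 each). The log2 difference was 0.38, with 0.54, 0.13 and 0.47 within replicates 1, 2 and 3. It was 0.86 without BDE209 replicate 2 and 0.02 without DMSO replicate 2, fits that keep the low replicate 2 level in 1 group only, and 0.51 without both.

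HSPG2 (ENSG00000142798) had the lowest mean FPKM of the 5 over the 6 libraries, though LUM read lower in DMSO replicates 1 and 3. It read 8.87, 2.5 and 12.04 FPKM in BDE209 replicates 1, 2 and 3, and 9.37, 3.23 and 10.56 FPKM in DMSO replicates 1, 2 and 3. The replicate 2 libraries were lowest in both groups and the remaining libraries were mixed in order. The means were 7.80 ± 4.86 FPKM in BDE209 and 7.72 ± 3.93 FPKM in DMSO (SD, n = 3 each), a log2 difference of -0.06 with -0.07, -0.27 and 0.17 within replicates 1, 2 and 3. The sign turned in replicates 1 and 3 alone, at 0.05, and when single libraries were left out, at 0.51 without BDE209 replicate 2, 0.13 without DMSO replicate 1 and 0.21 without DMSO replicate 3. Without DMSO replicate 2 it was -0.51.

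**Figure D2:**
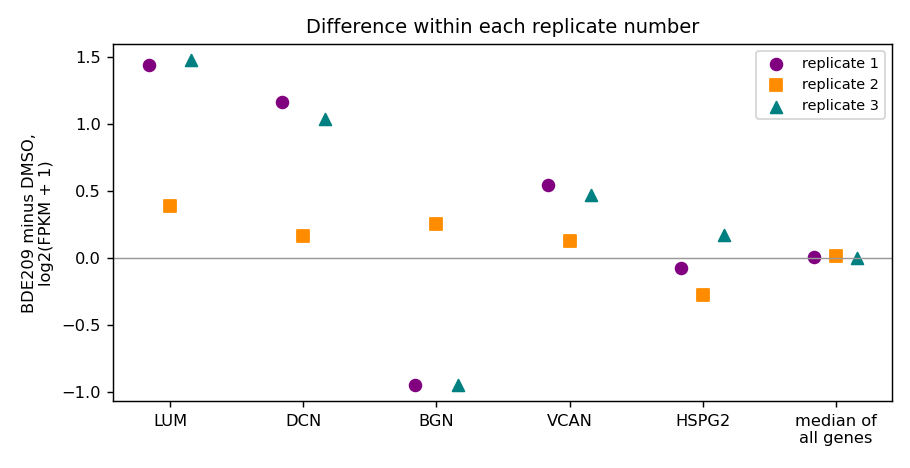
Difference of log2(FPKM + 1), BDE209 minus DMSO (y axis), within replicates 1, 2 and 3 for each of 5 proteoglycan genes, beside the median of the 11223 genes that passed the filter. LUM and DCN lay above 1 in replicates 1 and 3 and at 0.39 and 0.16 in replicate 2, while BGN lay at -0.94 and -0.95 in replicates 1 and 3 and at 0.25 in replicate 2.

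The promoters of BGN and VCAN are shown because these abundant members differed in opposite directions in replicates 1 and 3. RefSeq promoter sequences (GRCh38.p14) matched 3 of the 5 genes, BGN, VCAN and HSPG2. The 250 bases before each annotated start are given 5′ to 3′ on the plus strand, at chrX:153494730-153494979 for BGN and chr5:83471494-83471743 for VCAN, with each GGGCGG on either strand, the GC box bound by SP family factors, in capitals:
BGN: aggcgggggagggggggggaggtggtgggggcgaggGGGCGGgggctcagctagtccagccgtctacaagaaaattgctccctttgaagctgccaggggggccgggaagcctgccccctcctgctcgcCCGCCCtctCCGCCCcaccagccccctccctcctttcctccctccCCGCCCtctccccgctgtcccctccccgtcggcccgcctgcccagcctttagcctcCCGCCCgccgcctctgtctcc
VCAN: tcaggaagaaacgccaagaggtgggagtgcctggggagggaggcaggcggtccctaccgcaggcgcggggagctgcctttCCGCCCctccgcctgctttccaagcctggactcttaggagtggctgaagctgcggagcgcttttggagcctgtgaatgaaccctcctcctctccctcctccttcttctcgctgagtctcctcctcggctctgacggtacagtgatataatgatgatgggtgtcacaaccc
The BGN window held 5 GC boxes and the VCAN window 1, against 8 in the window of HSPG2, and 42.6% of 35116 RefSeq windows of this length held at least 1. Other letters were searched on both strands and were not in any of the 3 windows. The TATA box was searched as TATAAA, which stands in 10.7% of all windows. For AP-1, the factor of Fos and Jun proteins, the letters were TGANTCA (6.57% of all windows). The CCAAT box stands in 32% of all windows, and the core of the hypoxia response element, searched as ACGTG, in 18.5%. GC content was 74% in the BGN window, 60.8% in that of VCAN and 82.8% in that of HSPG2.

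FPKM is scaled to length, so levels can be set side by side between genes. In mean FPKM over the 6 libraries the order was BGN (392), VCAN (85.0), DCN (20.4), LUM (13.3) and HSPG2 (7.76). The ranges of neighbours in this order overlapped for DCN and LUM (12.94 to 31.15 and 7.26 to 23.38 FPKM) and for LUM and HSPG2 (2.5 to 12.04 FPKM), but not for BGN and VCAN (159.29 to 682.37 and 41.04 to 124.6 FPKM) or for VCAN and DCN. DCN stood above LUM in every library, at a ratio of 1.33, 1.77 and 1.26 in BDE209 replicates 1, 2 and 3 and 1.67, 2.13 and 1.78 in DMSO replicates 1, 2 and 3. By mean level BGN ranked 227th of the 11223 genes and HSPG2 6976th.

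The balance of BGN to the other small leucine-rich genes was alike in the BDE209 libraries and in DMSO replicate 2. The ratio of BGN to DCN FPKM was 10.6, 9.67 and 12.8 in BDE209 replicates 1, 2 and 3, and 47.6, 9.12 and 52.7 in DMSO replicates 1, 2 and 3. BGN made up 85.8%, 86.1% and 87.7% of the summed FPKM of LUM, DCN and BGN in BDE209 replicates 1, 2 and 3, against 96.7%, 86.1% and 97.1% in DMSO replicates 1, 2 and 3. The libraries with the high BGN share were DMSO replicates 1 and 3 alone. The summed FPKM of all 5 genes was 519, 268 and 540 in BDE209 replicates 1, 2 and 3, and 751, 229 and 803 in DMSO replicates 1, 2 and 3, an order set by BGN.

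**Figure D3:**
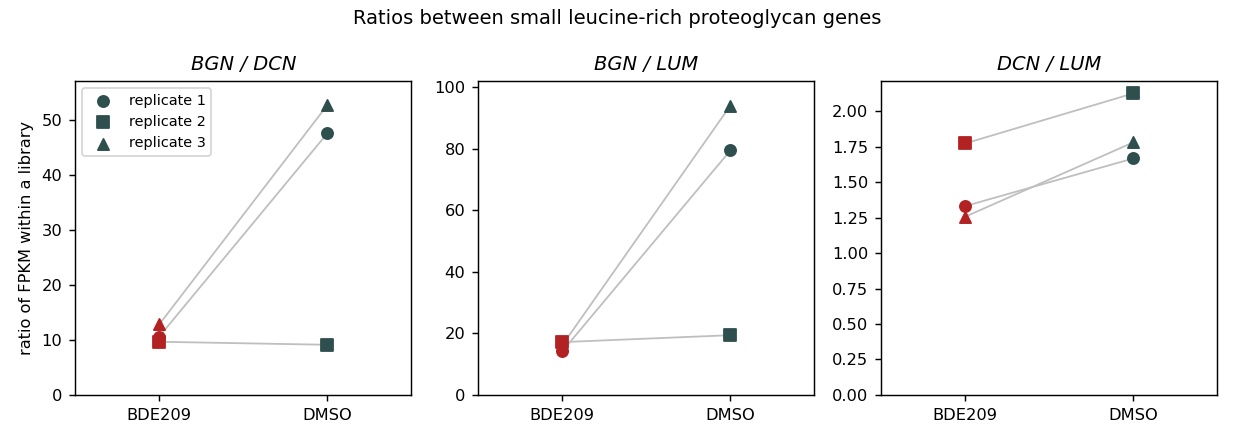
Ratios of FPKM between small leucine-rich proteoglycan genes within each library (y axes, from 0), with grey lines joining libraries of the same replicate number. The BGN to DCN ratio lay at 9.67 to 12.8 in BDE209 libraries and at 47.6 and 52.7 in DMSO replicates 1 and 3, with DMSO replicate 2 (square) at 9.12.

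For HSPG2, BGN and VCAN the shift of replicate 2 was larger in size over all libraries than the difference between BDE209 and DMSO. For BGN the order turned without DMSO replicate 2, at a shift of -0.84 and a difference of -1.22. This shift is the mean of the replicate 2 libraries minus that of replicates 1 and 3 on the log2(FPKM + 1) scale, from a limma fit with treatment and replicate number over all 11223 genes, a contrast that did not choose the list. Replicate 2 was singled out because earlier results of these data did so. The fit called 39.2% of all genes as lower and 27.8% as higher in replicate 2 at an adjusted p under 0.05, so a call is common. HSPG2 was lower there by a shift of -1.53 (SE 0.103, limma adjusted p = 0.000120), at a mean of 2.87 FPKM in replicate 2 and 10.2 FPKM in replicates 1 and 3. BGN was lower by -1.44 (SE 0.295, limma adjusted p = 0.0132), at 175 FPKM in replicate 2 and 501 FPKM in replicates 1 and 3, and the call was lost without BDE209 replicate 3 (adjusted p = 0.0505) or DMSO replicate 3 (0.0711). The shift of BGN was -2.04 without BDE209 replicate 2 and -0.84 without DMSO replicate 2. VCAN was lower by -1.26 (SE 0.0944, limma adjusted p = 0.000167), at 43.0 FPKM in replicate 2 and 106 FPKM in replicates 1 and 3. LUM (-0.44, limma adjusted p = 0.188) and DCN (-0.08, 0.762) did not pass. LUM passed with every library rescaled to 1 common sum (-0.91) or without DMSO replicate 2 (-0.97), and DCN passed as lower without DMSO replicate 2 (-0.55) and as higher without BDE209 replicate 2 (0.39).

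Transcript length moved with this shift. In 4 equal groups of genes by the longest coding transcript in GENCODE v29, the median shift was 0.35 in the shortest group, 0.00 and -0.21 in the next, and -0.40 in the longest, over genes of 5169 nt and more. VCAN (12625 nt), HSPG2 (14327 nt) and DCN (7156 nt) belong to the longest group, where VCAN and HSPG2 shifted further than the median and DCN less. BGN (2402 nt) and LUM (3008 nt) belong to the second group, whose median of 0.00 stands beside the shift of -1.44 in BGN. The part of length, or of RNA quality, in the shift was not tested.

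Each of the 5 genes had near neighbours in pattern, ranked by the root mean square distance of centred log2(FPKM + 1) profiles over the 6 libraries, which describes these libraries only. The closest to LUM were CASP1, the caspase that activates interleukin-1 beta (distance 0.11), C1S, a protease of the classical complement pathway (0.12), and DHRS3, a retinaldehyde reductase (0.16). C1S read 81.94, 38.94 and 77.65 FPKM in BDE209 replicates 1, 2 and 3, and 34.07, 35.5 and 32.82 FPKM in DMSO replicates 1, 2 and 3, the same high BDE209 values outside replicate 2 as LUM. For DCN they were MXI1, a MYC antagonist (0.05), PTX3, a secreted pattern recognition protein of inflammation (0.06), and TFAP2C, a transcription factor (0.08). PTX3 read 24.54, 15 and 22.61 FPKM in BDE209, and 9.74, 13.73 and 9.1 FPKM in DMSO replicates 1, 2 and 3, nearly the shape of DCN.

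For BGN the closest were RELN, the secreted glycoprotein reelin (0.08), PAGE5, a cancer-testis gene (0.13), and LTBP2, a matrix protein of elastic microfibrils (0.16). LTBP2 read 55.49, 24.48 and 62.44 FPKM in BDE209, and 109.37, 29.34 and 121.71 FPKM in DMSO replicates 1, 2 and 3, high in the same DMSO libraries as BGN. For VCAN they were BMP4, a morphogen (0.04), LGALS3BP, a secreted galectin-3 ligand (0.06), and SVEP1, a large matrix adhesion protein (0.07). For HSPG2 they were FLNA, the actin crosslinker filamin A (0.06), MYADM, a membrane protein (0.07), and NFIC, a transcription factor (0.08). These last genes, like HSPG2, were marked by the low replicate 2 and not by the treatment. Among the 5 genes themselves, VCAN and HSPG2 were 0.28 apart and LUM and BGN 1.09, the widest of the 10 pairs.

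**Figure D4:**
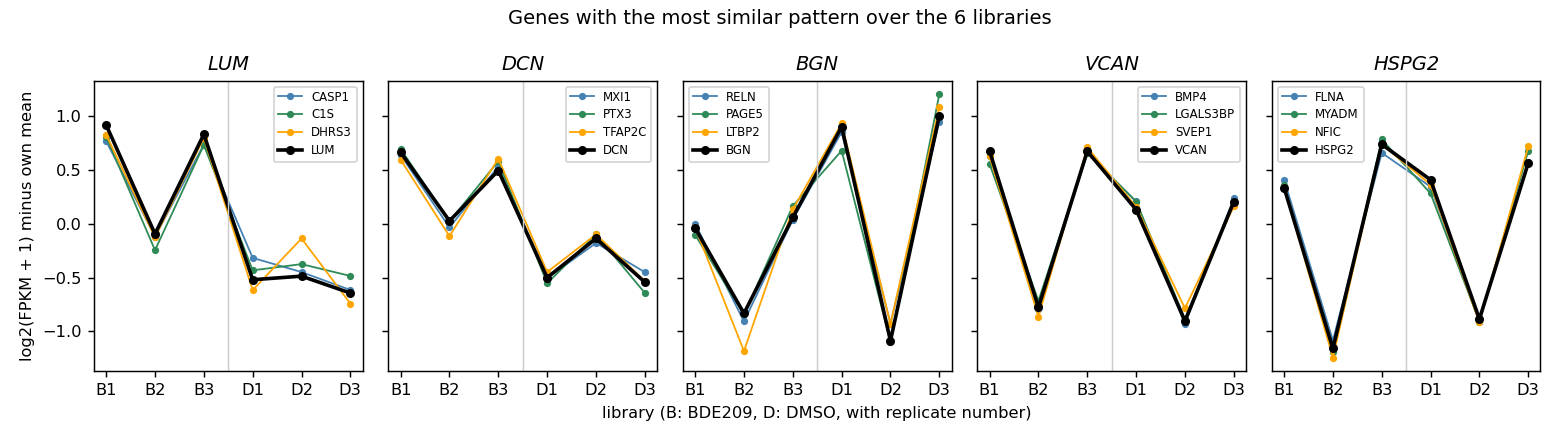
Centred log2(FPKM + 1) profiles (y axis) over the 3 BDE209 (B1 to B3) and 3 DMSO (D1 to D3) libraries for each of 5 proteoglycan genes (black) and the 3 genes with the smallest root mean square distance to it. The profiles of LUM and DCN peak in B1 and B3, that of BGN in D1 and D3, and those of VCAN and HSPG2 dip in B2 and D2.

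The rest of the proteoglycan system was followed through 9 lists of 171 genes, of which 166 were in the files and 109 passed the filter. Over all 6 libraries limma called 0 of these 109 genes and 0% of the 11223 genes, with 4 and 176 genes at an unadjusted p under 0.05, and limma without its trend called 0 genes as well. The 4 list genes were SDC1, CSGALNACT1, ADAMTS1 and TGFB3. The fit of treatment alone leaves the shift of replicate 2 in the spread that its p-values rest on. A fit that took the replicate number as a block also called 0 of all genes, with 1847 at an unadjusted p under 0.05. The smallest limma adjusted p with the block was 0.0622. The BDE209 and DMSO ranges lay apart in 7 of the 109 genes (6.42%), against 5.22% of all genes. In replicates 1 and 3 alone 112 list genes were tested, and 4 of them, HS6ST3, PODN, ELN and ADAMTS9, reached 1 FPKM in 1 group only and are given by their values. Of the other 108 limma called 8 higher and 12 lower (18.5%), against 6.76% of the 11167 genes that reached 1 FPKM in both groups (4.47% higher and 2.29% lower). The lists were chosen with earlier results of this contrast known, so nothing is read from that share, and the calls are no independent support. The same holds for the count of each list below. The median difference over all 6 libraries was 0.07 in the other small leucine-rich genes, 0.10 in other secreted and -0.03 in cell surface proteoglycans, 0.02 in heparan sulfate synthesis, 0.04 in hyaluronan genes and 0.13 in proteoglycan cleavage, beside 0.01 over all genes. In replicates 1 and 3 each group has 2 libraries, and the difference within replicate 2 is given beside the genes called there.

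Of the other small leucine-rich genes, the core family of LUM, DCN and BGN, 3 of 14 in the files passed the filter, and none of the remaining 11 read above 1.43 FPKM. ASPN (asporin), the near relative of decorin and biglycan that lies in another gene group, read 0.1, 0.03 and 0.15 FPKM in BDE209, and 0.59, 0 and 0.69 FPKM in DMSO replicates 1, 2 and 3. TSKU (tsukushi), a secreted leucine-rich signalling inhibitor, rose in replicates 1 and 3 alone (log2 difference 0.44, limma adjusted p = 0.0345). It read 59.69, 35.2 and 67.17 FPKM in BDE209, and 43.98, 34.29 and 48.98 FPKM in DMSO replicates 1, 2 and 3. PODN (podocan) read 0.62, 1.27 and 0.73 FPKM in BDE209, and 1.34, 1.11 and 1.65 FPKM in DMSO replicates 1, 2 and 3, with BDE209 the higher in replicate 2. PODNL1, a podocan-like gene, differed by 0.07 over all libraries and was not called.

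Among other secreted matrix proteoglycans, 7 of 14 passed the filter. In replicates 1 and 3 alone 1 rose and 1 fell (28.6% called, against 6.76% of all genes). SPOCK1, the heparan and chondroitin sulfate proteoglycan testican-1, read 24.68, 16.78 and 24.52 FPKM in BDE209, and 35.95, 19.38 and 39.83 FPKM in DMSO replicates 1, 2 and 3, and was called lower there (-0.60, limma adjusted p = 0.00767). ESM1, the dermatan sulfate proteoglycan endocan, was called higher there (0.51, limma adjusted p = 0.0336; 0.28 within replicate 2), and read 60.19 FPKM in BDE209 and 49.23 FPKM in DMSO replicate 2, against 13.92 to 23.53 FPKM in the other libraries. SPOCK3, another testican, differed by -0.18. Aggrecan (ACAN), the cartilage relative of versican, was at 0 to 0.02 FPKM, and HAPLN1, the link protein next to VCAN in the genome, at 0 to 0.01 FPKM.

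Of the cell surface proteoglycans 10 of 16 passed the filter, with 2 higher and 1 lower in replicates 1 and 3 alone (30% called, against 6.76% of all genes). SDC1 (syndecan-1) read 31.45, 33.11 and 33.94 FPKM in BDE209, and 42.31, 43.51 and 43.43 FPKM in DMSO replicates 1, 2 and 3. Its groups lay apart with little spread, including replicate 2, at a log2 difference of -0.38 (SE 0.111, limma adjusted p = 1.00 over all libraries, 0.204 with the replicate block, 0.0305 in replicates 1 and 3 alone). SDC4 (syndecan-4) rose by 0.43 and NRP1, a co-receptor that can carry a chain, by 0.29 in replicates 1 and 3 alone (limma adjusted p = 0.0453 and 0.0495), and both stood slightly lower in BDE209 in replicate 2, by -0.04 and -0.08. CSPG4 and GPC1 differed by -0.34 and -0.19 over all libraries, with BDE209 lower within each replicate number. CD44, the main hyaluronan receptor, differed by -0.02.

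By the median of each list, enzymes that build the sugar chains differed little, while single genes differed more. Of the 16 genes for chain linkage and precursors, all of which passed the filter, 0 were called in replicates 1 and 3 alone, against 6.76% of all genes. Their median difference was 0.01 over all libraries beside 0.01 over all genes. XYLT1, the xylosyltransferase that starts a chain, and UGDH, which makes UDP-glucuronate, differed by -0.33 and -0.21, and UXS1, which makes UDP-xylose, by -0.11. Of 17 tested genes for chondroitin, dermatan and keratan sulfate, 2 rose in replicates 1 and 3 alone and 0 fell (11.8% called, against 6.76% of all genes). Their median over all libraries was 0.04. CSGALNACT1, which adds the first sugar of a chondroitin chain, read 3.84, 3.3 and 3.49 FPKM in BDE209, and 1.7, 2.58 and 1.86 FPKM in DMSO replicates 1, 2 and 3. Its groups lay apart, with a log2 difference of 0.59 (SE 0.150, limma adjusted p = 1.00 over all libraries, 0.206 with the replicate block). In replicates 1 and 3 alone the difference was 0.75 (limma adjusted p = 0.00784). CHST15, a chondroitin sulfotransferase, rose by 0.53 there (limma adjusted p = 0.0232), with a difference of 0.06 within replicate 2. CHST7, another, differed by 0.31 over all libraries. UST, of the same list, read 4.19, 4.02 and 4.41 FPKM in BDE209, and 3.39, 3.42 and 3.28 FPKM in DMSO replicates 1, 2 and 3. The groups of UST lay apart too, and it was not called in replicates 1 and 3 alone (limma adjusted p = 0.117). Of the 10 heparan sulfate genes that reached 1 FPKM in both groups, 0 were called in replicates 1 and 3 alone, against 6.76% of all genes. HS6ST3, a 6-O-sulfotransferase, read 1.10, 0.39 and 1.02 FPKM in BDE209, and 0.34, 0.29 and 0.31 FPKM in DMSO replicates 1, 2 and 3. HS2ST1, HS6ST1 and EXTL2 differed by 0.20, 0.16 and 0.15 over all libraries.

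Among hyaluronan genes, 9 of 16 passed the filter, and 1 rose and 1 fell in replicates 1 and 3 alone (22.2% called, against 6.76% of all genes). TNFAIP6, which crosslinks hyaluronan with inter-alpha-inhibitor chains, read 5.33, 13.59 and 4.72 FPKM in BDE209, and 11.46, 14.73 and 9.66 FPKM in DMSO replicates 1, 2 and 3 (-0.94 in replicates 1 and 3, limma adjusted p = 0.00401). HYAL3, a hyaluronidase family gene, rose there by 0.72 (limma adjusted p = 0.0139) and stood at -0.13 in replicate 2. HAS2, the hyaluronan synthase that makes the partner of versican, read 87.4, 163.66 and 77.56 FPKM in BDE209, and 83.54, 155.27 and 76.41 FPKM in DMSO replicates 1, 2 and 3, and followed the replicate number. CEMIP and HYAL2, both of hyaluronan breakdown, differed by 0.22 and -0.13 over all libraries.

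Of 9 genes for proteoglycan cleavage that reached 1 FPKM in both groups, 1 rose and 3 fell in replicates 1 and 3 alone (44.4% called, against 6.76% of all genes). ADAMTS1, a protease that cuts versican and aggrecan, read 16.65, 14.24 and 17.62 FPKM in BDE209, and 28.56, 17.87 and 29.59 FPKM in DMSO replicates 1, 2 and 3. Its groups lay apart, opposite in direction to VCAN, with a log2 difference of -0.59 (SE 0.215, limma adjusted p = 1.00 over all libraries, 0.204 with the replicate block, 0.00295 in replicates 1 and 3 alone). MMP3, the protease stromelysin-1, fell in replicates 1 and 3 alone (-0.50, limma adjusted p = 0.0102), and was lower in replicate 2 as well, at 84.29 FPKM in BDE209 and 124.98 FPKM in DMSO. HTRA1, a serine protease, fell by 0.32 (adjusted p = 0.0376 by limma) and SULF1, which removes sulfate from heparan sulfate, rose by 0.69 (0.00680), both in replicates 1 and 3 alone. Within replicate 2 they differed by -0.02 and -0.07, so that SULF1 turned in sign. ADAMTS9, another versican protease, read 1.31, 0.32 and 1.29 FPKM in BDE209, and 0.82, 0.44 and 0.74 FPKM in DMSO replicates 1, 2 and 3.

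Of the binding partners and receptors, 28 of 34 passed the filter over all libraries, with a median difference of -0.08 beside 0.01 over all genes. Of 28 that reached 1 FPKM in both groups in replicates 1 and 3 alone, 0 rose and 6 fell (21.4% called, against 6.76% of all genes). COL3A1, the type III collagen of soft connective tissue, fell furthest of the lists there (-1.70, limma adjusted p = 0.000143). It read 7.53, 1.23 and 7.2 FPKM in BDE209, and 26.52, 0.93 and 25.84 FPKM in DMSO replicates 1, 2 and 3, with the high values in the same DMSO libraries as those of BGN. FN1 (fibronectin) read 788.43, 426.29 and 809.87 FPKM in BDE209, and 1148.34, 560.44 and 1158.66 FPKM in DMSO replicates 1, 2 and 3, lower in BDE209 within each number (-0.53 in replicates 1 and 3, limma adjusted p = 0.00831). CCN2, a matricellular target of transforming growth factor beta, fell by 1.00 and TGFB3, one of the ligands that decorin binds, by 0.47 in replicates 1 and 3 alone (limma adjusted p = 0.00197 and 0.0404), with differences of -0.18 and -0.11 within replicate 2. NID2 (nidogen-2) and MET, a receptor that decorin binds, fell by 0.40 and 0.39 in replicates 1 and 3 alone (limma adjusted p = 0.0346 and 0.0251), with -0.05 and -0.03 within replicate 2. ELN (elastin) read 0.59, 0.43 and 0.71 FPKM in BDE209, and 1.99, 0.69 and 1.79 FPKM in DMSO replicates 1, 2 and 3. COL1A1, the main collagen that lumican and decorin coat, differed by -0.08 over all libraries and COL6A1 by -0.08. The biglycan receptors TLR2 and TLR4 did not pass the filter. TLR2 read 0.71, 0.37 and 0.86 FPKM in BDE209, and 0.17, 0.3 and 0.22 FPKM in DMSO replicates 1, 2 and 3, while TLR4 was at 0 to 0.04 FPKM.

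Markers of mesenchymal cells moved with BGN in part, and others of the list went the other way. POSTN, a matricellular protein of fibroblasts, read 37.45, 20.45 and 33.03 FPKM in BDE209, and 121.29, 21.39 and 112.29 FPKM in DMSO replicates 1, 2 and 3. PDGFRA, a receptor of fibroblasts, read 249.61, 142.2 and 242.72 FPKM in BDE209, and 272.92, 130.28 and 272.68 FPKM in DMSO replicates 1, 2 and 3, and followed the replicate number more than the treatment. The whole list summed to 11200, 9561 and 10738 FPKM in BDE209, and 13279, 9766 and 12404 FPKM in DMSO replicates 1, 2 and 3, most of it VIM, the intermediate filament gene vimentin. VIM read 7520, 7183 and 6817 FPKM in BDE209, and 9207, 7737 and 8139 FPKM in DMSO replicates 1, 2 and 3. Other genes of the list read higher in BDE209 in replicates 1 and 3. CDH2 read 59.8 and 66.55 FPKM there, against 45.15 and 49.05 FPKM in DMSO. ACTA2 (0.95 to 3.33 FPKM over all libraries) and TAGLN (0.58 to 3.76 FPKM) were also higher there, at low levels. S100A4 was highest in BDE209 replicate 2, at 1033.28 FPKM. The part of this list in the values of BGN, LUM or DCN was not tested.

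**Figure D5:**
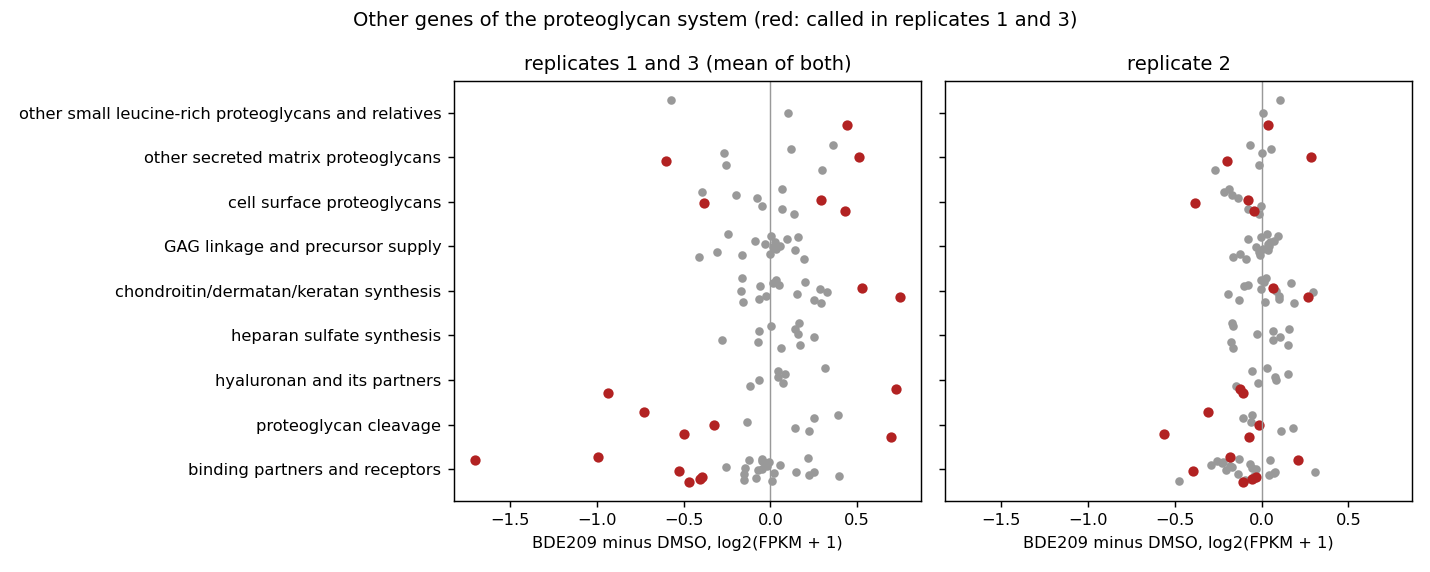
Differences of log2(FPKM + 1), BDE209 minus DMSO (x axis), for the 109 tested genes of 9 proteoglycan lists (rows), as the mean of replicates 1 and 3 (left) and within replicate 2 (right); red points passed limma at an adjusted p under 0.05 in replicates 1 and 3 alone and reached 1 FPKM in both groups. COL3A1 lies at -1.70 on the left and at 0.21 on the right, and HS6ST3, ELN and ADAMTS9, which passed the filter in replicates 1 and 3 alone, are not drawn.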

How the data were processed

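The deposited files hold gene-level FPKM under human Ensembl identifiers, rounded to 2 decimals, 1 library a file, per the file headers. The submitters' processing notes list RSEM, Bowtie 0.12.2 and Bowtie2, and the mouse builds mm8 and mm10. A human build, strand use and the handling of ambiguous reads are not given there, so near-identical and overlapping genes are uncertain and no gene coordinates are given. VCAN isoforms are not separated in gene values.

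Each file had 16614 rows; 40 rows of 20 identifiers listed 2 times were left out, and 16535 of the 16574 genes matched a symbol. Limma 3.58.1 (R 4.3.3, trend and robust options) was run on log2(FPKM + 1) over the 11223 genes with FPKM of at least 1 in 3 libraries, treatment alone, with Benjamini-Hochberg adjustment over all of them. For replicates 1 and 3 alone the filter asked for 2 of the 4 libraries; genes that reached 1 FPKM in 1 group only stay in the fit and are not counted as calls in the report. Members and lists were chosen with earlier results of these data known. List genes named are those called in replicates 1 and 3 or at 1 FPKM there in 1 group only, and those with the largest difference of constant sign in all 3 replicate numbers (up to 3 a list). Chosen after their values were seen were ASPN, KERA, EPYC, ACAN, HAPLN1, CD44, UST, HAS2, COL1A1, COL6A1, TLR2, TLR4, POSTN, PDGFRA, VIM, CDH2, ACTA2, TAGLN, S100A4 and PDPN. Near neighbours leave out genes with a clone or locus name only.

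Same-numbered libraries deviated together from their group means (correlation across genes 0.738, 0.875 and 0.824 for replicates 1, 2 and 3). The deviations within a group cancel out, and replicate 2 stood apart in both groups. Replicates 1 and 3 therefore deviate against it in both groups, whichever of them belong together. The values match the replicate 2 libraries with each other, and they cannot show that replicates 1 and 3 are paired by number. What same-numbered libraries have in common is not known. Simulated log2 changes of 1 set on the 11223 genes with the real replicate shift were recovered in 26.9% of cases, those of 2 in 82.2%, and in 95.7% and 99.1% with the block. The simulation gave both groups the same replicate shift and took its noise from replicates 1 and 3. It held no treatment difference that varies with the replicate number, as that of BGN did. These shares can therefore overstate recovery here, and the absence of calls with the block does not exclude such changes. Depth is unknown: FPKM carry no counts, and their low values showed no common step, so no counting error can be given. Alternatives were 2 pseudocounts (0.1 and 5), 2 filters, 2 scalings, the replicate block, replicates 1 and 3 alone, each library left out, and limma without trend.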

Additional observations from a re-analysis of the deposited data

How the results depend on the processing

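With the replicate number as a block, limma called 0 genes, as without it. Genes at an unadjusted limma p under 0.05 numbered 1847 with the block and 176 without it. The block was not a setting for the calls of the replicate 2 shift, whose fit already holds the replicate number. Limma called 810 genes in replicates 1 and 3 alone and 1 without BDE209 replicate 2 (C1QTNF1, named after its value was seen), against 0 over all libraries. In the proteoglycan lists it called 23 genes in replicates 1 and 3 alone, against 0; 55 of the 810 and 3 of the 23 reached 1 FPKM in 1 group only. The difference of DCN was 1.10 in replicates 1 and 3 alone, against 0.79. With single libraries left out, the count of genes called ranged over 0 to 1, that of list genes stayed at 0, and the differences ranged over 0.92 to 1.42 for LUM, 0.65 to 0.97 for DCN, -1.22 to -0.18 for BGN, 0.02 to 0.86 for VCAN and -0.51 to 0.51 for HSPG2. The pseudocount, filter and scaling alternatives kept the sign of all 5 differences.

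The count of genes shifted in replicate 2 was 7518 and ranged over 6013 to 9076. Rescaling every library to 1 common sum (TPM) moved the median shift of all genes to -0.55, against -0.10 as deposited, and LUM then passed the threshold (-0.91, limma adjusted p = 0.0350), a shift that was -0.37 relative to that median. The shift of DCN was -0.08 over all libraries, 0.39 without BDE209 replicate 2 and -0.55 without DMSO replicate 2, fits in which 1 library stands for replicate 2; the cause was not tested. That of LUM was -0.97 without DMSO replicate 2. Groups of 3 libraries limit all of these values, and the reads behind them are not known.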
